A study of Mus musculus with 21 samples.

Results

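The experiment compared the hippocampus of young mice that had received CD8+ T cells from aged donors with that of young mice that had received CD8+ T cells from young donors. It comprised 11 of the 21 samples of the series, 5 aged T recipients and 6 young T recipients, and every gene whose normalized count averaged 10 or more over the 11 libraries was taken, 14162 of 24411 genes listed. All recipients were male wild-type B6.SJL-Ptprca Pepcb/BoyJ mice aged 4 months, which carry a variant of the pan-leukocyte gene Ptprc. All of them, the controls included, first received an antibody against CD8a on days -11 and -7, which is used to remove a mouse's own CD8+ T cells. The donor cells came from spleen and blood of C57BL/6J mice aged 22 to 28 months (aged T) or 3 to 4 months (young T), and were injected into the tail vein as 300000 cells and then as 3000000 cells. Both groups therefore carried transferred cells, and no recipient without a transfer was part of the comparison. The mice were perfused, the hippocampus of 1 hemisphere was taken, and strand-specific libraries were made from polyadenylated RNA. The labels do not say whether donors were pooled or whether replicates came from separate transfer days, so p-values measure the spread between these samples only.

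CD8+ T cells are cytotoxic lymphocytes that recognise peptides on MHC class I molecules and kill through granzymes and perforin, and they also signal through interferon-gamma. Few of them enter the healthy brain, where most leukocytes are held in the meninges, the choroid plexus and the vessel wall. The hippocampus, a structure for forming memories, consists of the dentate gyrus and the CA fields, with their neurons, glia and vessels, and it lies beside the choroid plexus and the ependyma of the ventricle. The comparison asks whether the age of circulating CD8+ T cells changes RNA levels in a young hippocampus.

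The samples held hippocampal RNA by their markers. Slc17a7, the vesicular glutamate transporter of excitatory neurons, ranged from 19356 to 25983 normalized counts over all 11 libraries, and Prox1 of dentate granule cells from 380.5 to 1177. Markers of T cells were nearly unread in both groups. Cd3d and the perforin gene Prf1 had 0 reads in all libraries. Reads of the 10 T cell genes other than Lck, which neurons also express, summed to 4 to 46 per library, and those of 11 cytotoxic effector genes to 7 to 27. The 2 groups overlapped in both sums. Cd8a had 0 reads over the aged T libraries, which allows up to 0.0427 CPM, and 1 read over the young T libraries. Cd8b1 and Cd3e had 0 in aged T, and 1 and 7 in young T recipients. The granzyme genes Gzmk, Gzma and Gzmb had 0, 3 and 2 reads in aged T and 4, 4 and 0 in young T recipients, and these limits cover counting error only. Of the first sum, the T cell receptor signalling chain gene Cd247 gave 64 of 102 reads in aged T and 18 of 62 in young T recipients. In bulk RNA such as this, fewer cells of a type and less RNA per cell cannot be told apart. Depth ranged from 11232442 to 15055422 reads per library, and the difference in reads between the groups had an exact permutation p of 0.381 (two-sided). Choroid plexus tissue varied widely in both groups, with Ttr, its transthyretin gene, at 1585 to 50625 normalized counts in aged T and 2183 to 31162 in young T libraries.

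No gene passed the test between the groups. limma called 0 of 14162 genes at a Benjamini-Hochberg adjusted p under 0.05 (0% of genes), and at an unadjusted p under 0.05 there were 608 genes higher in aged T recipients (4.29% of all genes tested) and 561 lower (3.96%). The other tools called 0 genes as well. Unadjusted p-values under 0.05 numbered 1257 in edgeR (8.88%) and 1173 in limma-voom (8.28%), against 8.25% in limma. DESeq2 gave 1478 of the 18323 genes it tested (8.07%). Of all genes 49.0% were higher. The median log2 difference was -0.0045, and the middle 90% lay between -0.35 and 0.34. The groups did not overlap for 65 genes that lay higher (0.459% of all genes tested) and 34 that lay lower (0.24%). These are the backgrounds against which the groups of genes below are read, and every gene named below had a limma adjusted p of at least 0.600. The gene lists below were chosen with earlier results of these data known. Their counts of higher and lower members are therefore descriptions only. The number of genes at an unadjusted p under 0.05 depended on single libraries. It was 599 without aged T replicate 5, 722 without young T replicate 4 and 1811 without aged T replicate 4, against 1169 with all 11.

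Of the 12 leading genes by p on the higher side, 8 had groups that did not overlap, against 0.459% of all genes tested. These genes were picked by p in the same libraries, which favours such separation, so the count is a description only. Romo1, a mitochondrial inner membrane protein (chromosome 2, 156144153 to 156145794), had 268.5, 263.7, 401.9, 281.9 and 332.4 normalized counts in aged T replicates 1 to 5, and in young T recipients a lowest value of 177.7, a median of 200.3 and a highest of 242. All 5 aged T values lay above all 6 young T values, with a log2 difference of 0.56 (SE 0.13). Psmd8, a lid subunit of the proteasome (chromosome 7, 29174187 to 29180673), had 1114, 1114, 1177, 1115 and 1200 in aged T, and 898.3, 961.7 and 1003 as the lowest, median and highest young T values. Its groups did not overlap either, and its log2 difference of 0.25 (SE 0.07) rested on a narrow spread in both.

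Iscu, the scaffold on which iron-sulfur clusters are assembled (chromosome 5, 113772418 to 113778288), was at 930.4, 1069, 932, 910.6 and 1124 in aged T recipients against 740.9 to 854.6, with a median of 803.9, in young T recipients (log2 difference 0.31, SE 0.08). Fam58b, Smco3, Comtd1, a methyltransferase-domain gene, and Selm, a selenoprotein of the endoplasmic reticulum, also had groups that did not overlap, with log2 differences of 0.48, 0.41, 0.49 and 0.34. Timm13, a chaperone of mitochondrial import (0.33), Vkorc1, the vitamin K epoxide reductase (0.50), and Ndufb3 of complex I (0.38) overlapped, though all 5 aged T libraries lay above the young T median for each.

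Of the 12 leading genes by p on the lower side, picked in the same way, 8 had groups that did not overlap, against 0.24% of all genes tested. Nav2, a neuron navigator gene with a role in neurite growth (chromosome 7, 48959063 to 49610090), had 342.3, 400.9, 319.7, 301.2 and 306.2 normalized counts in aged T replicates 1 to 5, and 415.7, 465.6 and 558.1 as the lowest, median and highest young T values. The groups did not overlap, and the log2 difference was -0.50 (SE 0.10, 95% interval -0.71 to -0.28). In the authors' deposited table, which gives young T over aged T and is turned here, Nav2 had a log2 fold change of -0.50 and an adjusted p of 0.0899. Celsr3, an atypical cadherin of axon guidance (chromosome 9, 108826023 to 108852969), was at 679.9, 661.9, 618, 650 and 479.2 in aged T against 744.1 to 1313, with a median of 898, in young T recipients. These groups also lay apart, with a log2 difference of -0.60 (SE 0.15).

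Kcnq1ot1, the long antisense RNA of an imprinted domain (chromosome 7, 143213111 to 143296547), had 60.5, 53.5, 30.4, 41.6 and 40.8 normalized counts in aged T recipients and 66.5, 79.9 and 105.1 as the lowest, median and highest young T values. Its log2 difference was -0.87 (SE 0.20), the groups did not overlap, and the labels do not say how strand was used in counting, which an antisense RNA depends on. Hic2, a zinc-finger repressor (-0.63), Ccnt1, the cyclin of the elongation factor P-TEFb (-0.43), and Wipf2, an actin regulator (-0.28), likewise lay apart. Lrp1, an endocytic receptor (-0.40), Col19a1, a collagen of the synapse and matrix (-0.87), Cemip, a hyaluronan-degrading protein (-0.54), and Rbm33 (-0.53) overlapped, with all 5 aged T libraries below the young T median for each.

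**Figure D1:**
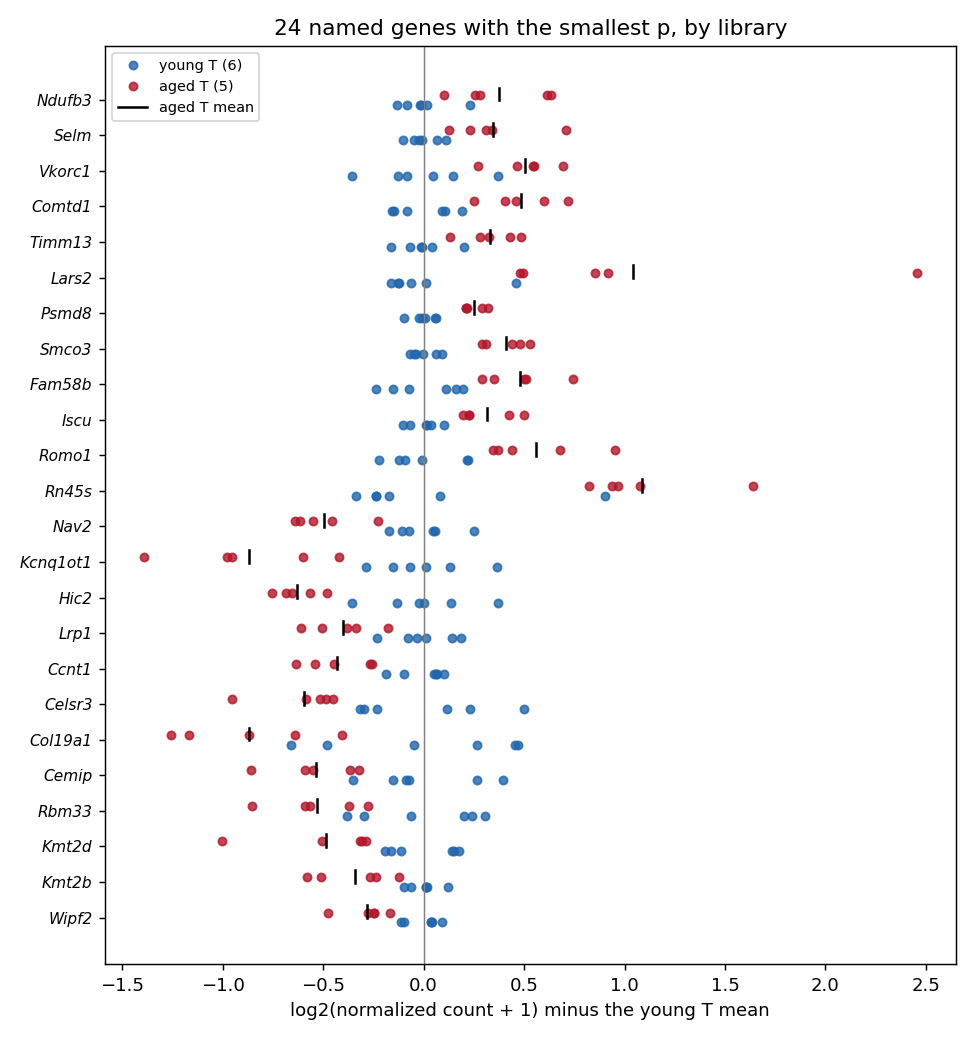
Each point is 1 library, plotted as log2(normalized count + 1) minus the young T mean of that gene on the x axis, for the 12 named genes per direction with the smallest p (y axis); aged T red, young T blue, black bar the aged T mean. For Rn45s 1 young T library lies inside the aged T range, and for Lars2 1 aged T library at 7043 normalized counts stands far from the other 4.

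The gene with the smallest p was a precursor of ribosomal RNA. Rn45s, the 45S transcript from which the large ribosomal RNAs are cut, had 112225, 123907, 103959, 114720 and 182556 normalized counts in aged T replicates 1 to 5, and 46442, 50911 and 109729 as the lowest, median and highest young T values. The groups overlapped only through young T replicate 2, at 109729. As a share of reads it was 0.936% ± 0.234 (SD, n = 5) against 0.452% ± 0.173 (n = 6), a difference of 0.483 percentage points (exact permutation p = 0.00649, two-sided, smallest possible 0.00216). This p is not adjusted for the number of genes from which Rn45s ranked first, and the limma adjusted p of Rn45s was 0.600. Among libraries whose sample names carry numbers of 10 or under, the difference was 0.737 points (2 against 3 libraries), and among those with 18 or over 0.295 points (3 against 3). Each of those sets is too small to go below an exact p of 0.1, and they gave 0.1 and 0.2. Libraries were made from polyadenylated RNA, which the 45S precursor is not, and whether carry-over of such RNA plays a part in the difference was not tested.

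Lars2 and some noncoding RNAs also stood high in single libraries, and other noncoding RNAs lay lower. Lars2, the mitochondrial leucyl-tRNA synthetase gene (chromosome 9, 123366927 to 123462675), had 1810, 1793, 2318, 2430 and 7043 normalized counts in aged T and 1146, 1205 and 1767 as the lowest, median and highest young T values. The groups lay apart (log2 difference 1.04, SE 0.27), and the libraries highest in Lars2 within each group, aged T replicate 5 and young T replicate 2, were also the highest in Rn45s. Rpph1, the RNA of ribonuclease P, was named after its values were seen. It had 11.3, 11.6, 96.8, 2.03 and 90.6 in aged T and a median of 4.15 in young T recipients, so that 2 libraries carried its log2 difference of 2.05 (SE 0.77). In the authors' deposited table Rpph1 had an adjusted p of 0.0899, level with Nav2. Rmrp, the RNA of a related ribonuclease, was also named afterwards, and stood highest in the same 2 libraries, at 21.4 and 61.6, with a log2 difference of 1.85. In the other direction, the nuclear long RNAs Malat1 (-0.71, SE 0.24) and Meg3 (-0.91, SE 0.37), also named outside the rule, were lower, with all 5 aged T libraries below the young T median and overlapping groups. Over the 13 tested members of the list of nuclear and precursor RNAs, 3 were higher and 10 lower, with a median of -0.31 that was -0.12 without aged T replicate 5.

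Nuclear genes of the respiratory chain lay higher in aged T recipients across all 5 complexes, though none passed the test. The chain oxidises NADH and succinate in complexes I and II, passes electrons through III and IV, and complex V uses the resulting proton gradient to make ATP. All 37 tested members of complex I were higher (median log2 difference 0.29). Of these, 24 were at an unadjusted p under 0.05, against 4.29% of all genes tested. Ndufb10 led after Ndufb3 with 0.38. Complex II had 4 of 4 higher (median 0.14), complex III 9 of 9 (0.28), complex IV 15 of 15 (0.31) and complex V 16 of 16 (0.29). At an unadjusted p under 0.05 were 1, 4, 4 and 8 of these members. Over all 81, 3 had groups that did not overlap and lay higher, against 0.459% of all genes tested. Transcripts of these genes are short, with a median of 865 bases against 3247 for all tested genes. The difference followed transcript length, as described below. The complex IV median was 0.19 without aged T replicate 3. The 13 genes encoded by the mitochondrion's own genome were not analysed here.

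Single members varied between libraries in both groups. Ndufb3 (chromosome 1, 58586397 to 58595964) had 1080, 970.2, 1405, 1100 and 1388 normalized counts in aged T replicates 1 to 5 and 824.5, 895.2 and 1062 as the lowest, median and highest young T values. Sdhb, the iron-sulfur subunit of complex II (chromosome 4, 140961271 to 140979198), had 1763, 1702, 1878, 1772 and 2056 in aged T and 1404, 1605 and 1621 in young T recipients, and its groups did not overlap (log2 difference 0.22, SE 0.07). The aged T replicates 3 and 5 were the highest in both genes. Uqcrq and Uqcr10 of complex III (0.37 and 0.44), Cox6b1 and Cox6a1 of complex IV (0.37 and 0.39), and Atp5g1, a membrane ring subunit of complex V (0.36), with its inhibitor Atpif1 (0.35), all overlapped between groups. Averaged over the 81 genes and centred on all libraries, the log2 level was 0.15, -0.06, 0.40, -0.10 and 0.36 in aged T replicates 1 to 5 and -0.31 to 0.13 in young T libraries. Thus aged T replicates 2 and 4 lay inside the young T range.

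The proximal promoters of these genes are shown because respiratory-chain genes are known targets of NRF1, a factor that binds a palindromic GC-rich site, and because they lay on 1 side together. The windows hold the 250 bases before the first listed RefSeq start (GRCm38.p6), 5′ to 3′ on the gene's strand. For Romo1 and Nav2 that start lies inside the gene range given above. The end of each of their windows, with the marked Romo1 motif, therefore falls within that range. Capitals mark GCGCATGC, the core of the NRF1 motif, or CCGGAAGT, an ETS motif, on either strand. The 3 respiratory-chain genes shown are those with the smallest p among those that hold the NRF1 core. Romo1 and Nav2 are shown as the leading genes with a promoter window on each side.
Ndufa8 (chr2:36049339-36049588, minus strand): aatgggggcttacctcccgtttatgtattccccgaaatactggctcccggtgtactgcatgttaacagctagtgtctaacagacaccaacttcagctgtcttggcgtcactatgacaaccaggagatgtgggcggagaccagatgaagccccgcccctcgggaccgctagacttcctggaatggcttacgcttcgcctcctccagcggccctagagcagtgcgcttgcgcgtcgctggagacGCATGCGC
Ndufa6 (chr15:82354292-82354541, minus strand): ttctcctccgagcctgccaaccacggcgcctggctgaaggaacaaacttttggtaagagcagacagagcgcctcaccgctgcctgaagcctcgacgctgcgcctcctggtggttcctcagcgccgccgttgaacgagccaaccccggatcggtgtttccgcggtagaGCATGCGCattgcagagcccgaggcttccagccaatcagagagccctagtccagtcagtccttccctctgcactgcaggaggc
Sdhb (chr4:140961021-140961270, plus strand): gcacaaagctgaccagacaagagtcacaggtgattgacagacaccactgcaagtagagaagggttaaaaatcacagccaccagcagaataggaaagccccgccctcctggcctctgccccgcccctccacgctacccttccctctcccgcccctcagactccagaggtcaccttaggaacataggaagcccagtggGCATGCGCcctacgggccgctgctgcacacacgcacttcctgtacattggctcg
Romo1 (chr2:156143983-156144232, plus strand): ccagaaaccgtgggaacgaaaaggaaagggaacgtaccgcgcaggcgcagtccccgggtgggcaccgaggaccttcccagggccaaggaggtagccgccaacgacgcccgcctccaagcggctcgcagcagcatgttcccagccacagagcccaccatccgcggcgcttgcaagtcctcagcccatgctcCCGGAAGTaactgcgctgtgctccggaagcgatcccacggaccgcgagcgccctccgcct
Nav2 (chr7:48958823-48959072, plus strand): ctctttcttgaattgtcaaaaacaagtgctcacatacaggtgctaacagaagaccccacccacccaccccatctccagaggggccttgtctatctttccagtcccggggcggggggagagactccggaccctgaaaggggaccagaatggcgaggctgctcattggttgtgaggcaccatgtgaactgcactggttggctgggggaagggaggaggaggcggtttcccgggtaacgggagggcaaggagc
Ndufa8 and Ndufa6 are complex I subunits, with log2 differences of 0.34 and 0.38. A window was found for 66 of the 81 genes, and 8 of them (12.1%) held the NRF1 core, against 463 of 10737 tested genes with a window (4.31%) and 2.32% of all 27025 promoters. For CCGGAAGT the shares were 4.55%, 5.54% and 2.93%. Of 67 mitochondrial ribosomal protein genes with a window, 11.9% held each of the 2 motifs, and of 60 cytosolic ribosomal protein genes 0 held the NRF1 core and 13.3% the ETS motif. The windows of Romo1 and Nav2 hold no NRF1 core. A match describes these letters and not a bound site.

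Genes of protein synthesis, import and turnover lay on the same side as the respiratory chain. All 82 tested cytosolic ribosomal protein genes were higher (median 0.30). Of these, 23 were at an unadjusted p under 0.05, against 4.29% of all genes tested. The median was 0.17 without aged T replicate 3, and many of these genes have pseudogenes that can share their reads. Of 76 mitochondrial ribosomal proteins 75 were higher (median 0.20, 25 at an unadjusted p under 0.05), led by Mrpl55 (0.36) and Mrpl9 (0.26). All 23 genes of mitochondrial import and iron-sulfur assembly were higher, with a median of 0.24 and 10 at an unadjusted p under 0.05. The constitutive proteasome, which degrades ubiquitin-tagged proteins, had 29 of 31 higher with a median of 0.14. Psma7 of its core ring (0.28) followed Psmd8. All 15 proteins of small nuclear ribonucleoproteins, parts of the spliceosome, were higher (median 0.20), among them Snrpg (0.52) and Snrpd2 (0.32). Of 33 glutathione and antioxidant genes 28 were higher (median 0.12), with Gstp1, a glutathione transferase, at 0.36 and the peroxiredoxin Prdx5 at 0.27. That median was 0.21 without aged T replicate 2, 0.20 without aged T replicate 4 and 0.18 without young T replicate 3. Glycolysis enzymes stood closer to all genes, with 13 of 16 higher. Their median of 0.06 was 0.03 without aged T replicate 5 and 0.09 without young T replicate 5.

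Genes that write and remodel chromatin lay lower. Of 25 tested histone methyltransferases, acetyltransferases and remodellers 25 were lower, with a median of -0.26. Of these, 17 were at an unadjusted p under 0.05, against 3.96% of all genes tested. Kmt2d, a methyltransferase of histone H3 lysine 4 at enhancers (chromosome 15, 98831669 to 98874077), had 959.7, 979.1, 840.9, 964.3 and 595.1 normalized counts in aged T replicates 1 to 5 and 1043, 1209 and 1352 as the lowest, median and highest young T values. Its groups did not overlap, nor did those of its relative Kmt2b (616 ± 81.4 against 777 ± 41.5, log2 difference -0.34, SE 0.09). Of 15 genes of RNA polymerase II elongation 14 were lower (median -0.12), with Polr2a, the polymerase's largest subunit, at -0.27. The latter median was -0.07 without aged T replicate 5 and -0.06 without young T replicate 4.

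Lists of ion channel, synapse and neuronal adhesion genes also had lower medians. Voltage-gated calcium and sodium channel genes had 20 of 22 lower (median -0.17), with Cacna1a, a presynaptic calcium channel, at -0.27 and Cacna1g, a low-threshold one, at -0.34. Potassium channel genes had 34 of 40 lower (median -0.15), among them Kcnj9 (-0.33). Presynaptic genes had 28 of 30 lower (median -0.13), with the release-site proteins Unc13a (-0.24) and Pclo (-0.33), and postsynaptic density genes 21 of 27 (median -0.09). All 3 neuron navigators were lower (median -0.38), with Nav1 at -0.38. Protocadherins and their relatives were lower in 51 of 77 (median -0.09), with Fat4 at -0.44. Activity-induced immediate early genes were lower in 21 of 28 cases (median -0.14), with Fosb at -0.42 and Nr4a2 at -0.31. Several of these medians depended on 1 library. The postsynaptic one was -0.05 without aged T replicate 5, the navigator one -0.24 without the same library, and the immediate early one -0.09 without it, -0.08 without young T replicate 2 and -0.09 without young T replicate 6. The protocadherin median was -0.16 without aged T replicate 4, -0.15 without young T replicate 3, -0.06 without young T replicate 5 and -0.05 without aged T replicate 3.

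**Figure D2:**
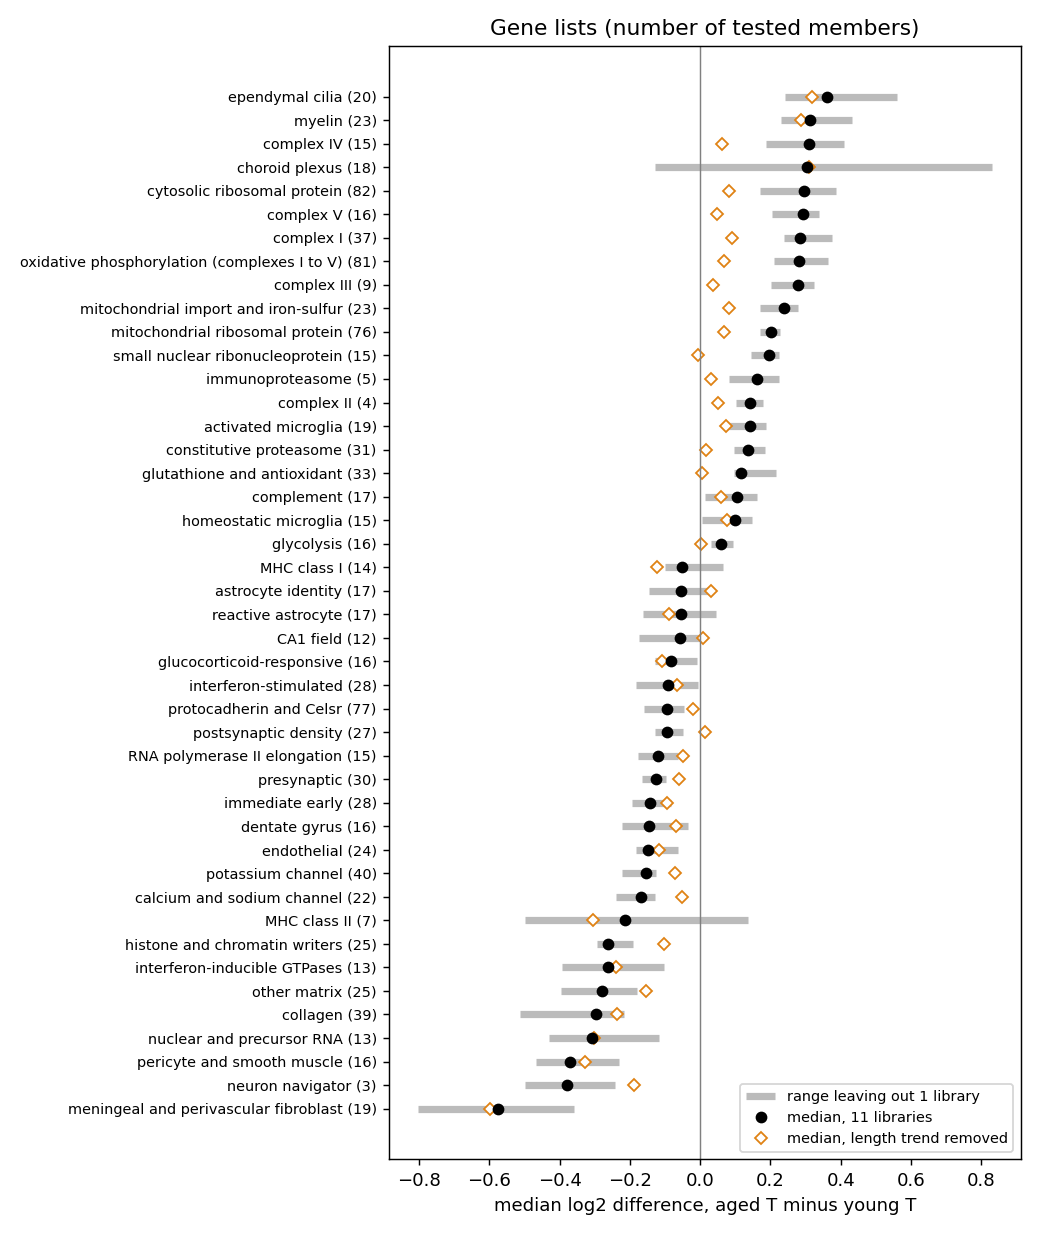
Median log2 difference (x axis, aged T minus young T) of each gene list (y axis, number of tested members in parentheses), with all 11 libraries (black), over fits that leave out 1 library (grey bar) and after the trend with transcript length was removed in each library (orange diamond). Complex IV falls from 0.31 to 0.06 and chromatin writers from -0.26 to -0.10, while myelin genes (0.31 to 0.29) and fibroblast genes (-0.57 to -0.60) keep their place.

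The difference between the groups followed transcript length across all genes. The 14074 tested genes with a known length were put into 10 bins of like size by their longest annotated transcript. The median log2 difference was 0.20 in the shortest bin (192 to 1352 bases), where 86.5% of genes were higher, and -0.15 in the longest (6856 bases and over), where 11.8% were higher. The medians between fell in order from bin to bin. The shortest bin held 284 of the genes that were higher at an unadjusted p under 0.05, and the longest 203 of those that were lower. Across genes, which share these 11 libraries and are not replicates, Spearman's rho between length and difference was -0.51 (n = 14074), and -0.39 without aged T replicate 5. The depletion experiment of the series used other mice, aged 22 to 24 months and given CD8a antibody or IgG2b, and a separate normalization. There rho between length and the difference, CD8a antibody minus IgG2b, was -0.30 (n = 13784).

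Length varied between libraries within each group too. The shortest bin minus the longest, as mean log2 centred on all libraries, was 0.13, -0.02, 0.34, -0.15 and 0.65 in aged T replicates 1 to 5, and -0.06, -0.17, 0.11, -0.34, -0.22 and -0.27 in young T replicates 1 to 6. The groups overlapped, and aged T replicates 3 and 5 and young T replicate 3 stood highest in their groups, as they did for respiratory-chain genes. The median transcript length was 865 bases for the 81 respiratory-chain genes, 896.5 for cytosolic ribosomal proteins and 9037 for chromatin writers, against 3247 for all tested genes. With the length trend removed in each library, the median was 0.07 for respiratory-chain genes (0.09, 0.05, 0.04, 0.06 and 0.05 for complexes I to V), 0.08 for cytosolic and 0.07 for mitochondrial ribosomal proteins, 0.08 for mitochondrial import and 0.02 for the proteasome. It was 0.03 for the immunoproteasome, 0.0042 for glutathione and antioxidant genes and 0.0033 for glycolysis. Chromatin writers were then at -0.10, neuron navigators at -0.19, protocadherins at -0.02, calcium and sodium channels at -0.05, potassium channels at -0.07 and presynaptic genes at -0.06. Of the 44 lists described, immature neuron genes apart, 4 medians turned sign. They were those of small nuclear ribonucleoproteins (-0.01), the postsynaptic density (0.01), astrocyte identity (0.03) and CA1 markers (0.01). The median of immature neuron genes also turned, from -0.02 to 0.02. In that fit 606 of 14074 genes (4.31%) were at an unadjusted p under 0.05, against 8.25% with the trend left in. RNA integrity is not among the sources used here, and its part in the trend was not tested.

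**Figure D3:**
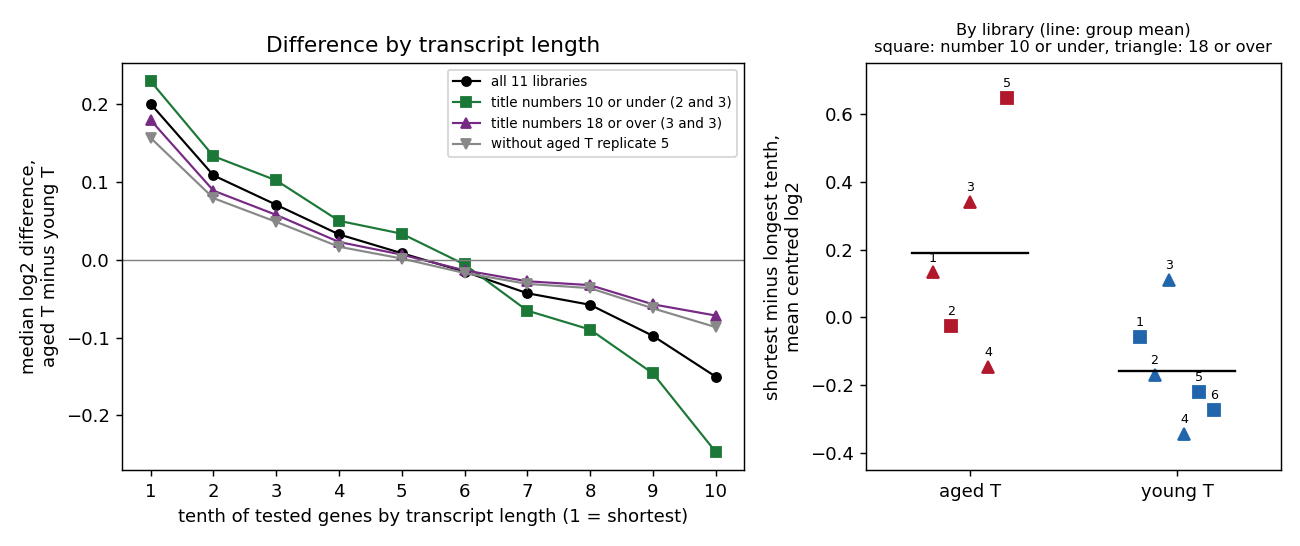
Left, the median log2 difference (y axis) in 10 bins of tested genes by transcript length (x axis) for all libraries, for 2 sets of libraries with no sample in common, and without aged T replicate 5; every line falls from the shortest to the longest bin. Right, the shortest minus the longest bin in each library (points numbered by replicate, line the group mean), with aged T replicate 5 highest at 0.65 and young T replicate 4 lowest at -0.34.

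Lists of fibroblast, vessel wall and matrix genes lay lower. All 19 tested markers of meningeal and perivascular fibroblasts, which make the collagens of the brain's coverings, were lower, with a median of -0.57 and 4 at an unadjusted p under 0.05 (3.96% of all genes tested). With the length trend removed the median was -0.60. Lum, a matrix proteoglycan (chromosome 10, 97565501 to 97572703), had 76.6, 50.8, 49.5, 50.7 and 35.3 normalized counts in aged T and 55.8, 84.3 and 115.6 as the lowest, median and highest young T values, so that 4 of 5 aged T libraries lay below all young T libraries. Contractile pericyte and smooth muscle genes had 14 of 16 lower (median -0.37), including Myh11, a smooth muscle myosin (-1.01), and Tagln (-0.91).

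Matrix genes shared this pattern. Collagens had 32 of 39 lower (median -0.30), with Col7a1, an anchoring fibril collagen, at -1.52 (SE 0.41) from 7.10 to 23.6 normalized counts in aged T and 16.8 to 58.7 in young T recipients. Other matrix genes had 21 of 25 lower (median -0.28), with Hspg2, the basement membrane proteoglycan perlecan, at 105, 98, 94.6, 53.7 and 85.2 against 116.8 to 189.4, groups that did not overlap. Fn1, fibronectin, was at -0.57 with overlapping groups. Endothelial genes had 19 of 24 lower (median -0.15), with Vwf at -0.63 and Adgrl4 at -0.32. With the length trend removed the medians were -0.33 for pericyte and smooth muscle, -0.24 for collagen, -0.15 for other matrix and -0.12 for endothelial genes.

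These lists varied widely within each group. The mean centred log2 level of fibroblast genes was 0.40, -0.01, -0.19, -1.10 and -0.83 in aged T replicates 1 to 5 and ran from -0.71 to 1.48 in young T recipients, highest in young T replicate 1. Without that library the medians were -0.39 for fibroblast, -0.23 for pericyte and smooth muscle, -0.22 for collagen, -0.18 for other matrix and -0.06 for endothelial genes. Without aged T replicate 4 the fibroblast median was -0.36 and the endothelial one -0.08. The collagen median was -0.51 without young T replicate 2 and -0.46 without aged T replicate 1. The amount of meninges and large vessels left on a dissected hippocampus is not given in the sources used here, and its part in these differences was not tested.

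Genes of myelin and of ependymal cells lay higher. Myelin genes, made by oligodendrocytes, had 22 of 23 higher (median 0.31), with Car2, a carbonic anhydrase (0.27), and Qdpr, a pterin reductase (0.35). Of the 23, 5 were higher at an unadjusted p under 0.05, against 4.29% of all genes tested. The myelin medians were 0.23 to 0.43 over fits that left out 1 library, and 0.29 with the length trend removed. By library the list ran from -0.26 to 0.56 in aged T and from -0.58 to 0.22 in young T recipients, where young T replicates 3 and 4 stood lowest. Ependymal and cilia genes had 17 of 20 higher (median 0.36, 5 at an unadjusted p under 0.05), and Mia, which encodes a secreted protein (chromosome 7, 27179741 to 27181149) was at 57.7, 25.8, 60.8, 15.2 and 76.1 normalized counts in aged T against 8.23 to 38.7, with a median of 14.2, in young T recipients. Ccdc153, a coiled-coil gene of the list, was at 1.12. The ependymal median was 0.56 without aged T replicate 4 and 0.24 without aged T replicate 2. Choroid plexus genes had 16 of 18 higher (median 0.30, 0 at an unadjusted p under 0.05), but their median moved with nearly every library left out, from -0.13 without aged T replicate 1 to 0.83 without aged T replicate 4. The ependyma and the choroid plexus line the same ventricle, and the part of dissection in their levels was not tested.

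**Figure D4:**
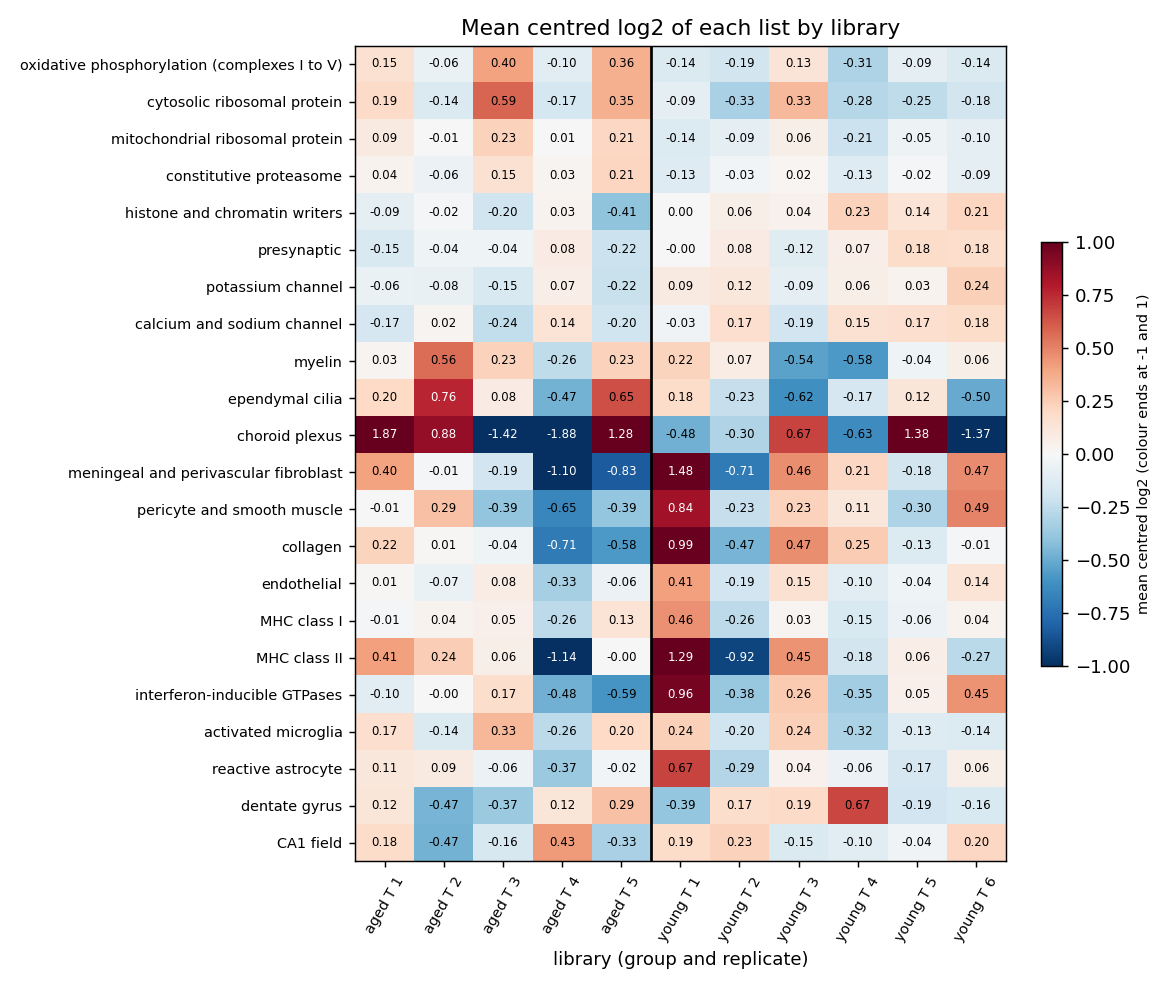
Mean log2 level of each list (rows), centred on the 11 libraries, in each library (columns; colour and printed value); the black line divides aged T from young T. Choroid plexus genes run from -1.88 to 1.87 within the aged T group, and young T replicate 1 stands highest in fibroblast, MHC class II and interferon-inducible GTPase genes.

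Immune genes of the recipient tissue showed no common direction. MHC class I genes, the ligands of CD8+ T cells, were higher in 6 of 14 cases (median -0.05), with H2-D1 at 593 ± 88.7 against 647 ± 180 and H2-K1 at 440 ± 110 against 467 ± 190 normalized counts (SD, n = 5 and 6). B2m, their invariant chain, was at -0.08 (SE 0.13), and the loading factors Tapbpl and Tapbp at -0.35 and -0.18. The class I median ran from -0.10 without aged T replicate 5 to 0.07 without aged T replicate 4. The signs of H2-D1, H2-K1 and B2m turned when aged T replicate 4 was left out, and also when young T replicate 1 was. The immunoproteasome, which interferon-gamma induces to cut peptides for MHC class I, had 5 of 5 higher (median 0.16), with Psme2 at 0.22 and Psmb10 at 0.18. Its median was 0.08 without young T replicate 4, and 0.10 without young T replicate 6 or aged T replicate 3.

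Interferon-inducible GTPases, which mark a response to interferon-gamma, had 11 of 13 lower with a median of -0.26. Gbp5, a guanylate-binding protein (chromosome 3, 142496934 to 142522344), had 41.6, 34.7, 49.5, 36.5 and 36.2 normalized counts in aged T and 36.7, 62.8 and 91.3 as the lowest, median and highest young T values. The lower range of young T recipients thus overlapped the aged T values, and Tgtp2 was at -1.32 (SE 0.56). The GTPase median was -0.10 without young T replicate 1 and -0.15 without aged T replicate 4. Interferon-stimulated genes had 12 of 28 higher (median -0.09), with Ifi27 at 0.37 and Stat2 at -0.24. Their median ran from -0.18 without aged T replicate 3 to -0.01 without aged T replicate 4. MHC class II genes had 3 of 7 higher (median -0.22). Their invariant chain Cd74 was at 32.8 ± 17.5 against 65.8 ± 61.1, with 180.6 in young T replicate 1, and the protease Ctss at 0.20. Without that library the class II median was 0.14, without aged T replicate 4 it was 0.13, and it ran down to -0.50 without aged T replicate 1.

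Microglia, complement and astrocyte lists had medians nearer to that of all genes than the myelin list did. Activated microglia genes had 13 of 19 higher (median 0.14), with Tyrobp, a receptor adaptor, at 0.52 (SE 0.24) and the tetraspanin Cd63 at 0.28. Their median was 0.08 without aged T replicate 3 or 5. Homeostatic microglia genes had 10 of 15 higher (median 0.10), with the fructose transporter Slc2a5 at 0.36. That median ran from 0.01 without aged T replicate 3 to 0.15 without young T replicate 3. Complement genes had 10 of 17 higher (median 0.10), with C1qa of the initiating complex at 643 ± 125 against 535 ± 75.3 normalized counts (log2 difference 0.25, SE 0.13) and C4b at -0.01. The complement median ran from 0.01 without aged T replicate 3 to 0.16 without aged T replicate 4. Aif1, a microglial marker, was at 77.3 ± 12.8 against 79.7 ± 16.6, and Ptprc, carried in its B6.SJL form by the recipients, at 49.1 ± 15.1 against 43.8 ± 18.1. Astrocyte identity genes had 7 of 17 higher (median -0.05) and reactive astrocyte genes 7 of 17 (median -0.05), with Aspg at -0.86 and Gfap, the astrocyte filament, at 0.23 (SE 0.18). Leaving out 1 library turned both medians, which ran from -0.14 (without aged T replicate 3) to 0.03 (without young T replicate 3) for identity and from -0.16 (without aged T replicate 2) to 0.05 (without aged T replicate 4) for reactive genes.

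Genes of hippocampal fields and stress hormones gave no clear difference. Dentate gyrus markers had 14 of 16 lower (median -0.14) with 0 at an unadjusted p under 0.05, and Trpc6 was at -0.26. Their median ran from -0.22 without young T replicate 5 to -0.03 without young T replicate 4. CA1 markers had 8 of 12 lower (median -0.06). The latter median ran from -0.17 without aged T replicate 4 to a value near 0 without aged T replicate 2. Dcx, a marker of new neurons, was at 175 ± 42.4 against 185 ± 47.7 normalized counts and Bdnf, a neurotrophin, at 759 ± 83.2 against 786 ± 171. Of 20 tested immature neuron genes 9 were higher and 11 lower (median -0.02). The 2 with the smallest p lay higher with overlapping groups, Igfbpl1 at 1.02 (SE 0.44) and Top2a at 0.51 (SE 0.26). The median of that list ran from -0.02 without aged T replicate 1 to 0.08 without aged T replicate 5. Glucocorticoid-responsive genes had 10 of 16 lower (median -0.08), led by Zbtb16 (-0.55, SE 0.16). Their median ran from -0.13 without young T replicate 5 to -0.01 without aged T replicate 4.

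The numbers in the sample names fall into 2 runs, 10 or under (2 aged T and 3 young T libraries) and 18 or over (3 and 3), and the labels do not say what they stand for. The 2 runs share no library, so each gives its own comparison. Over all 14162 genes the sign of the difference was the same in both for 60.4%. The first run's 100 leading genes by p among those higher were higher in the second for 61%, and its 100 leading lower genes were lower there for 70%. In the other direction the shares were 73% and 67%.

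Some list medians had the same sign in both runs and others turned. Complex I had medians of 0.31 and 0.28, cytosolic ribosomal proteins 0.28 and 0.28, myelin 0.32 and 0.40, chromatin writers -0.28 and -0.19 and fibroblast genes -0.74 and -0.36. Choroid plexus genes had 1.33 and -0.40, CA1 markers -0.46 and 0.20, interferon-inducible GTPases -0.64 and 0.08, MHC class II genes -0.47 and 0.03, and dentate gyrus markers 0.07 and -0.38. Whether these differences between the runs exceed the spread of single libraries was not tested. With the run as a covariate, the medians of these 10 lists kept the sign they had without it. Both groups were spread over the runs in like numbers, so that fit could change the medians little. It does not bear on the lists that turned between the runs.

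**Figure D5:**
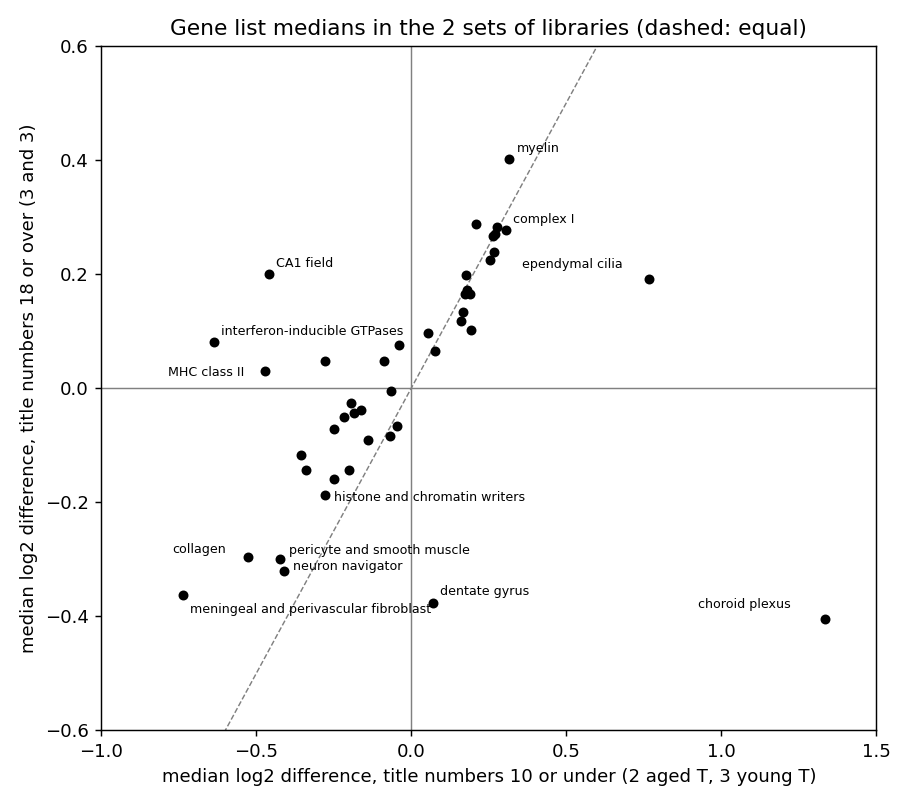
Median log2 difference of each gene list in libraries with title numbers 10 or under (x axis) and 18 or over (y axis); each point is 1 list and the dashed line marks equal values (the axes have different scales). Complex I and myelin lie high in both sets, and choroid plexus genes lie at 1.33 in one and -0.40 in the other.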

How the data were processed

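Per the labels, hippocampal RNA of 11 recipients was sequenced as strand-specific polyadenylated libraries. The submitters' processing notes name STAR, RSEM, DESeq2 and the mm10 build, without versions. How reads were counted is not stated there. The deposited signal values are read counts, each scaled by the authors with a size factor of its library. Their table also gives a log2 fold change, a p-value with its adjusted form and a Wald score per gene, per the file headers. Dividing by the value of 1 read gave whole reads for 100% of values (relative tolerance 1e-06).

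Genes with a mean of at least 10 were tested on log2(value + 1) with limma 3.58.1 (trend; R 4.3.3) and Benjamini-Hochberg adjustment, so folds of low genes are understated. edgeR 4.0.16, DESeq2 1.42.0 and limma-voom on recovered reads, other pseudocounts, filters and scalings, each library left out and, added after seeing the data, a block of neighbouring title numbers were alternatives. The code was tested on simulated data. The members and the 67 gene lists were chosen with earlier results of these data known. Named genes are the 12 per direction with the smallest p (predicted symbols excluded), the 2 of each list with the smallest p, and 18 fixed genes, of which some are not reported here. Those named outside this rule, and the motif search, were chosen after values were seen. No library duplicated another (smallest chi-square per degree of freedom 12.75 between replicates).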

Additional observations from a re-analysis of the deposited data

Results flagged for a closer look

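In 26 of 288 groups of values examined (9.03%), 1 library lay farther from the others than a Dixon test allows. Chance gives about 1 in 20 groups where these are independent. Here the groups share the same libraries and many values are related, so the 2 shares cannot be compared as a test. Rn45s stood at 182600 normalized counts in aged T replicate 5 and 109700 in young T replicate 2, whose share of reads was 0.795%, and Lars2 at 7043 and 1767 in the same libraries. Young T replicate 3 stood apart in Uqcr10 (905.4), Cox6b1 (1773), Rpl19 (3591), Psma7 (1367), Tapbpl (119.2), Psme2 (414.3), Slc2a5 (127.5) and Fosb (79.1, low), and in the mean centred log2 level of cytosolic ribosomal proteins (0.33). Young T replicate 1 stood high in Hspg2 (189.4), Tapbp (514.7), B2m (1369), H2-D1 (1001), H2-K1 (833.3) and reactive astrocyte genes (0.67). Young T replicate 4 was low in Sdhb (1404) and Psmb10 (240.8). In aged T recipients, replicate 4 was low in H2-D1 (437) and MHC class II genes (-1.14), replicate 1 high in Col7a1 (23.6), and replicate 3 high in astrocyte identity genes (0.42).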

How the results depend on the processing

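Under 24 alternatives, no fit called a gene, and 87 of the 98 named genes tried kept their sign throughout. Many of these genes were picked by p in the same libraries that the alternatives reuse. This favours a kept sign, so the count is a description only. Genes at an unadjusted p under 0.05 numbered 606 with the length trend removed, 425 in libraries numbered 18 or over and 599 to 1811 with 1 library left out. The Rn45s share differed by 0.737 and 0.295 points in the 2 runs of numbers, each with too few libraries to go below an exact permutation p of 0.1. With the length trend removed, medians were 0.0685 for complexes I to V, 0.0899, 0.0504, 0.0377 and 0.049 for I, II, III and V, 0.0807 for import, 0.0688 for mitochondrial ribosomal proteins, 0.0163 for the proteasome, -0.0053 for small nuclear ribonucleoproteins, -0.10 for chromatin writers and 0.0133 for the postsynaptic density. The CA1 median was -0.46 in numbers 10 or under. Over pairs of 1 list and 1 alternative, immature neuron genes left out, the median moved by less than 1 SD in 1043 and by more in 12. The SD was that of the list's level between libraries within the groups, which is wide for some lists. The choroid plexus median of 0.30 was thus not counted as moved, though it was 1.33 and -0.40 in the 2 runs of numbers. Signs turned for C4b (0.0774), Dcx (0.0813) and Bdnf (0.0267) without the length trend. They turned in numbers 18 or over for Nr4a2 (0.0485), Ttr (-0.99), C4b (0.0208), H2-K1 (0.0362) and Dcx (0.0742), and in 10 or under for Ptprc (-0.26) and Trpc6 (0.0713). With 1 library left out, values of both signs ran from -0.18 to 1.06 for Ttr, -0.1384 to 0.0894 for C4b, -0.1576 to 0.0050 for B2m, -0.1673 to 0.0297 for H2-D1, -0.1344 to 0.1354 for H2-K1, -0.1432 to 0.0451 for Aif1, -0.1706 to 0.0711 for Dcx and -0.1073 to 0.0537 for Bdnf, and the cause was not tested. No interferon-inducible GTPase gene was left at a mean of at least 100. The labels give aged T and young T libraries no shared number, but 5 aged T libraries have a young T library numbered 1 higher. A replicate block of these neighbours, chosen after seeing the data, called 0 genes, with 1638 at an unadjusted p under 0.05 against 931 for the same 10 libraries without the block, and turned Ttr (-0.0191) and Dcx (0.046). Deviations within the pairs correlated from -0.137 to 0.241, 2 of 5 best with their neighbour, so the pairing is a hint at most. Complexes I to V taken as 1 list were higher and chromatin writers lower in the aged T library of all 5 pairs. Complexes II and III taken alone were each higher in 4 of 5 pairs.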
